A study of Mus musculus with 9 samples.

Results

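The 5 killer lectin-like receptor genes Klrc1, Klrd1, Klrk1, Klrg1 and Klre1 were followed in mouse cytotoxic T lymphocytes (CTL) treated with 2 inhibitors of the kinase mTOR. They were taken by gene symbol from the array annotation, which gave 6 of the 45101 probe sets and 5 of 18193 genes: a pair of probe sets for Klrc1 and 1 for each of the other genes. The cells came from spleens of P14-TCR mice, labelled wild type, which carry a transgenic T cell receptor for a viral peptide on their CD8 T cells. Cells of each spleen were stimulated with the peptide, IL-2 and IL-12 over 48 h and, after washing, kept in culture until day 6, that is for 96 h more. During the last 48 h, 3 cultures received 20 nM rapamycin, 3 received 1 uM KU-0063794 and 3 received the solvent DMSO. The labels give 1 spleen per biological replicate and use the numbers 1 to 3 in every group, so cultures of a number are taken as cells of the same spleen. The labels name the cells CD8 CTL and describe no sort.

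Killer lectin-like receptors are type II membrane proteins of the C-type lectin superfamily, first known from natural killer (NK) cells and also found on activated CD8 T cells. Klrd1 encodes CD94, which pairs with NKG2A, the product of Klrc1, to form an inhibitory receptor for the class Ib molecule Qa-1. Klrk1 encodes NKG2D, an activating and costimulatory receptor that signals through the adaptor DAP10 and binds stress-induced ligands. Klrg1 encodes an inhibitory receptor for cadherins and is a marker of terminally differentiated effector CD8 T cells. Klre1 encodes NKG2I, which in the mouse pairs with receptors of the Klri group. In the RefSeq annotation of GRCm38.p6, Gabarapl1, Klre1, Klrd1, Klrk1, Klrc3, Klrc2 and Klrc1 are consecutive protein-coding genes of the natural killer gene complex on chromosome 6, and Klrg1 lies elsewhere on that chromosome.

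RefSeq promoter sequences of build GRCm38.p6 were found for 3 of the 5 members, Klrk1, Klrc1 and Klre1. The 250 bases before the start are shown as a description. They are reference sequence and carry no information on differences between the spleens. Capitals mark matches to the RUNX motif TGTGGT on either strand. The sequences read 5′ to 3′ on the strand of the gene, with Klrk1 at chr6:129623865-129624114 on the minus strand, Klrc1 at chr6:129678974-129679223 on the minus strand, and the first of the listed Klre1 starts at chr6:129577963-129578212 on the plus strand.
Klrk1: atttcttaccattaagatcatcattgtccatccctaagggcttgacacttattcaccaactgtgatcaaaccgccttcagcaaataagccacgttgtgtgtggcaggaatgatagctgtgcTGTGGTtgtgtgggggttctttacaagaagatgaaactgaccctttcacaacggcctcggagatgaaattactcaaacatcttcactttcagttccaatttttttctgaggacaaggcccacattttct
Klrc1: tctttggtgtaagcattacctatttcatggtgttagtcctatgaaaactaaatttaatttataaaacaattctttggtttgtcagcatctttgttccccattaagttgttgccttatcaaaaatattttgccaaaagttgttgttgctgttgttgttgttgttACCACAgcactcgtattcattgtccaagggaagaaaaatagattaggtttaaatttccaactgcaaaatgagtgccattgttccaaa
Klre1: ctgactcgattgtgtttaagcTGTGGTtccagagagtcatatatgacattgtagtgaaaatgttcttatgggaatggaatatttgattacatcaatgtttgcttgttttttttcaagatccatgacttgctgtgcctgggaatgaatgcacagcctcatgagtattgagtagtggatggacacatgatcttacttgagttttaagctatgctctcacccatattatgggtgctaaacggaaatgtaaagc
Each window held 1 RUNX match, beginning 129 bases before the start in Klrk1, 87 in Klrc1 and 229 in Klre1. Of 32851 RefSeq promoter windows of the same length, 14% held one. None of the 3 windows held the T-box letters TCACAC (in 12.3% of all windows), the ETS letters ACTTCC (19.7%), the FOXO letters GTAAACA (3.17%) or the STAT letters TTCNNNGAA (7.02%) on either strand. The window of the other listed Klre1 start held no RUNX match and 1 T-box match, beginning 42 bases before it. These matches describe the letters and are not evidence of binding.

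Array medians lay between 0.47 and 0.53 log2, and 28.5% to 29.1% of probe sets exceeded a background level of 1.56 log2, the 95th percentile of the values of 34 genes restricted to unrelated tissues. All 8 CD8 T cell markers with a probe set were above it. Of 8 NK cell markers with a probe set, Fcer1g was above it, at a mean of 3.06 log2 with rapamycin, 3.11 with KU-0063794 and 3.81 with DMSO. The other NK cell markers were below it, among them Ncr1 (0.57 log2 with DMSO), Klra8 (-0.13) and Tyrobp (0.28). The mean of the 8 NK cell markers was 0.62 to 0.68 log2 over the rapamycin arrays, 0.64 to 0.70 over the KU-0063794 arrays and 0.68 to 0.77 over the DMSO arrays. By their mean over all arrays, 1 of 7 B cell, 1 of 9 myeloid, 1 of 4 CD4 T cell, 0 of 2 NKT and gamma delta T cell and 0 of 3 erythroid markers were above it. A bulk signal cannot tell fewer cells carrying a transcript from less transcript per cell. Signals of different probe sets are not comparable as amounts, so each gene was set against itself and against the background level.

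Klrk1, the NKG2D gene, was well above background on all 9 arrays. It read 7.14, 7.29 and 7.67 log2 in the rapamycin cultures of spleens 1, 2 and 3, 7.03, 7.10 and 7.46 log2 in the KU-0063794 cultures and 6.76, 6.69 and 7.21 log2 in the DMSO cultures. In each spleen the rapamycin culture was highest and the DMSO culture lowest, while the groups overlapped, with spleen 3 high in each of them. The rapamycin cultures averaged 7.37 ± 0.27 log2 and the DMSO cultures 6.89 ± 0.28 (SD, n = 3 each), a log2 fold change of 0.48 (SE 0.18, limma adjusted p = 0.201). Within spleens 1, 2 and 3 the rapamycin culture exceeded the DMSO culture by 0.38, 0.60 and 0.46 log2. With the spleen as a block the same change, 1.39-fold, passed the threshold (SE 0.07, limma adjusted p = 0.00673). KU-0063794 gave 7.20 ± 0.23 log2 (SD, n = 3), a log2 fold change of 0.31 against DMSO (SE 0.18, limma adjusted p = 0.421). The differences within spleens were 0.26, 0.42 and 0.25 log2, and this change also passed with the block (SE 0.07, limma adjusted p = 0.0309).

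Klrd1, the CD94 gene, showed a wider spread between spleens than between treatments. Its values in spleens 1, 2 and 3 were 7.43, 7.03 and 8.43 log2 with rapamycin, 7.20, 6.82 and 8.30 with KU-0063794 and 6.99, 6.09 and 8.20 with DMSO. Spleen 3 was highest and spleen 2 lowest in all 3 groups, and within every spleen the order was rapamycin, KU-0063794, DMSO from high to low. The log2 fold change of rapamycin against DMSO was 0.53 (SE 0.57, limma adjusted p = 0.695), and with the spleen as a block its SE was 0.13 (limma adjusted p = 0.0412). This blocked call was close to the threshold: in the fit of all 27022 probe sets tested, in place of 1 probe set per gene, the blocked adjusted p of limma was 0.0529. KU-0063794 gave a log2 fold change of 0.35 (SE 0.57, limma adjusted p = 0.817, or 0.146 with the block), with differences of 0.21, 0.73 and 0.10 log2 in the 3 spleens.

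Klrc1, the NKG2A gene, was above background on all 9 arrays with both of its probe sets. The one used in the gene tests read 5.67, 5.32 and 5.43 log2 in the rapamycin cultures of spleens 1, 2 and 3, 5.33, 4.98 and 5.57 in the KU-0063794 cultures and 5.41, 4.40 and 5.33 in the DMSO cultures. The other read 4.87, 3.84 and 4.31 log2 with rapamycin, 4.23, 3.58 and 4.22 with KU-0063794 and 4.78, 2.89 and 4.11 with DMSO. The DMSO culture of spleen 2 was the lowest array on both probe sets, and their values correlated over the 9 arrays with r = 0.91, a description of paired readings of the same libraries. The probe set used in the gene tests had a log2 fold change of 0.43 for rapamycin against DMSO (SE 0.26, limma adjusted p = 0.438, or 0.138 when blocked by spleen). Its differences were 0.26, 0.92 and 0.10 log2 in the 3 spleens, so spleen 2 carried most of the mean. For KU-0063794 the log2 fold change was 0.25 (SE 0.26, limma adjusted p = 0.683, or 0.380 with the block), and spleen 1 went the other way by -0.08 log2. On the other probe set the log2 fold changes were 0.42 for rapamycin and 0.09 for KU-0063794.

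Klre1 crossed the background level in 1 spleen. It read 2.18 log2 with rapamycin, 2.63 with KU-0063794 and 1.63 with DMSO in spleen 3, the 3 arrays on which it was above 1.56 log2. In spleens 1 and 2 it lay between 0.49 and 1.05 log2 under all treatments. Neither inhibitor gave an adjusted p under the threshold (limma, 0.814 for rapamycin and 0.793 for KU-0063794, or 0.316 and 0.253 when blocked by spleen).

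Klrg1 was below the background level on all 9 arrays. It read 0.98, 1.17 and 1.09 log2 with rapamycin, 1.22, 1.31 and 1.31 with KU-0063794 and 1.31 on each DMSO array. The values of 5 arrays, 3 DMSO and 2 KU-0063794, were identical to the deposited digits, so the spread of the DMSO group is not a measured one. Differences of this probe set are not read as fold changes, since its signal was below background in all groups. All 3 rapamycin arrays lay below the 6 others, without overlap with either group; 9.69% of all genes tested were lower without overlap with rapamycin than with DMSO, and 4.87% were higher without overlap with KU-0063794 than with rapamycin. The limma adjusted p for rapamycin against DMSO was 0.144, or 0.0733 when blocked by spleen.

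**Figure D1:**
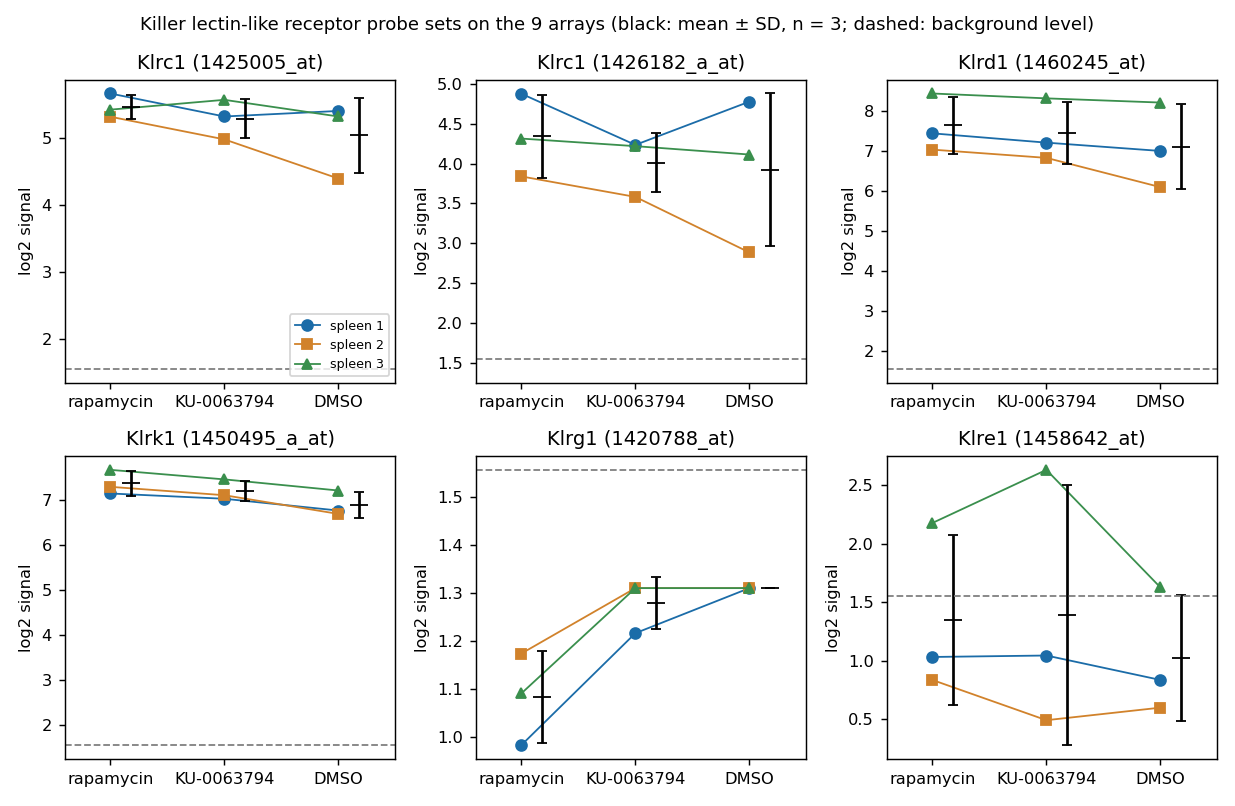
Log2 signal of the 6 probe sets on the 9 arrays, by treatment (horizontal axis), with points of 1 spleen joined by a line, the mean ± SD of each group in black (n = 3) and the background level of 1.56 log2 dashed; vertical axes differ between panels. The Klrd1 and Klre1 lines of spleen 3 lie above those of spleens 1 and 2 in all groups, while in every spleen Klrk1 is highest with rapamycin and lowest with DMSO.

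Counted over the members, 0 of 5 genes passed the limma test without a spleen term for rapamycin against DMSO, where 4.44% of 13278 genes tested did, and 0 of 5 passed for KU-0063794, where 4.07% did. All 5 members passed the filter on low signals. At an unadjusted p under 0.05, 2 of 5 members passed for rapamycin, where 17.9% of all genes tested did, and 0 for KU-0063794, where 18.5% did. The 2 were Klrk1 and Klrg1, of which Klrg1 was below background on all arrays and had no measured spread with DMSO. With the spleen as a block 2 of 5 rose with rapamycin, Klrk1 and Klrd1, where 6.24% of all genes tested rose. With the block 1 of 5 rose with KU-0063794, Klrk1, where 6.52% rose. Genes above background, as Klrk1 and Klrd1 were, passed more often. Of 7737 such genes, 775 rose and 639 fell with rapamycin with the block, and 825 rose and 708 fell with KU-0063794. Without the block 1977 and 2106 of them had an unadjusted p under 0.05. The adaptor, phosphatase, transcription factor, surface molecule and CD8 marker genes below were also mostly above background. In the fit of all probe sets with the block 1 of 6 passed for each inhibitor, Klrk1 in both, where 7.77% passed for rapamycin and 7.81% for KU-0063794. With rapamycin 4 of 5 members, all but Klrg1, were higher than with DMSO in all 3 spleens, where 19.7% of genes were. With KU-0063794 2 of 5 were, Klrk1 and Klrd1, where 22.1% of genes were. The median log2 fold change of the 5 members, Klrg1 included, was 0.43 for rapamycin and 0.31 for KU-0063794, against -0.00427 and 0.0114 over all genes tested. Both comparisons use the same 3 DMSO arrays, so a low DMSO value raises both fold changes of a gene.

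The calls with the block were recomputed with arrays or spleens left out. The Klrk1 change with rapamycin passed when any 1 of the 9 arrays was left out (limma adjusted p 0.0139 to 0.0360 with the block) and did not pass when a whole spleen was left out (0.0724 to 0.0854). The Klrk1 change with KU-0063794 passed without any 1 rapamycin array, and it did not pass without any 1 KU-0063794 array (0.0816 to 0.116), any 1 DMSO array (0.0701 or more) or a whole spleen (0.139 to 0.174). The Klrd1 change with rapamycin kept its call in 1 of these 12 settings, without DMSO replicate 3 (0.0375), and had an adjusted p of 0.0522 to 0.205 in the others. With the block and a spleen left out, fewer genes of any kind passed. For rapamycin the totals over all genes were 6, 411 and 18 without spleens 1, 2 and 3, against 1561 with all spleens. For KU-0063794 they were 89, 474 and 123, against 1644. A call lost there therefore does not show that it rested on 1 spleen. The fold changes kept their sign in all blocked settings with an array or spleen left out. They lay between 0.42 and 0.53 log2 for Klrk1 with rapamycin, 0.25 and 0.34 for Klrk1 with KU-0063794, and 0.33 and 0.69 for Klrd1 with rapamycin. Without the block single arrays moved the means further. The Klrd1 change with rapamycin was 0.03 log2 without DMSO replicate 2 and 0.13 without rapamycin replicate 3, against 0.83 without rapamycin replicate 2 and 1.09 without DMSO replicate 3. The Klrc1 change with rapamycin was 0.11 log2 without DMSO replicate 2, the lowest of a range that reached 0.61. The Klrk1 change ranged between 0.33 and 0.64 log2 with rapamycin, and with KU-0063794 between 0.18 without KU-0063794 replicate 3 and 0.47 without DMSO replicate 3.

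Control readings also moved with treatment within spleens. The beta-actin control, as its 3′ minus its 5′ probe set, a sign of RNA quality, was 0.621, 0.720 and 0.619 log2 with rapamycin in spleens 1, 2 and 3, 0.671, 0.699 and 0.647 with KU-0063794 and 0.543, 0.654 and 0.492 with DMSO. It was thus lowest with DMSO in every spleen, as Klrk1 and Klrd1 were. The mean 18S control was lower with KU-0063794 than with DMSO in all 3 spleens, and lower with rapamycin than with DMSO in spleens 1 and 3. The part of either in the receptors' changes was not tested.

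**Figure D2:**
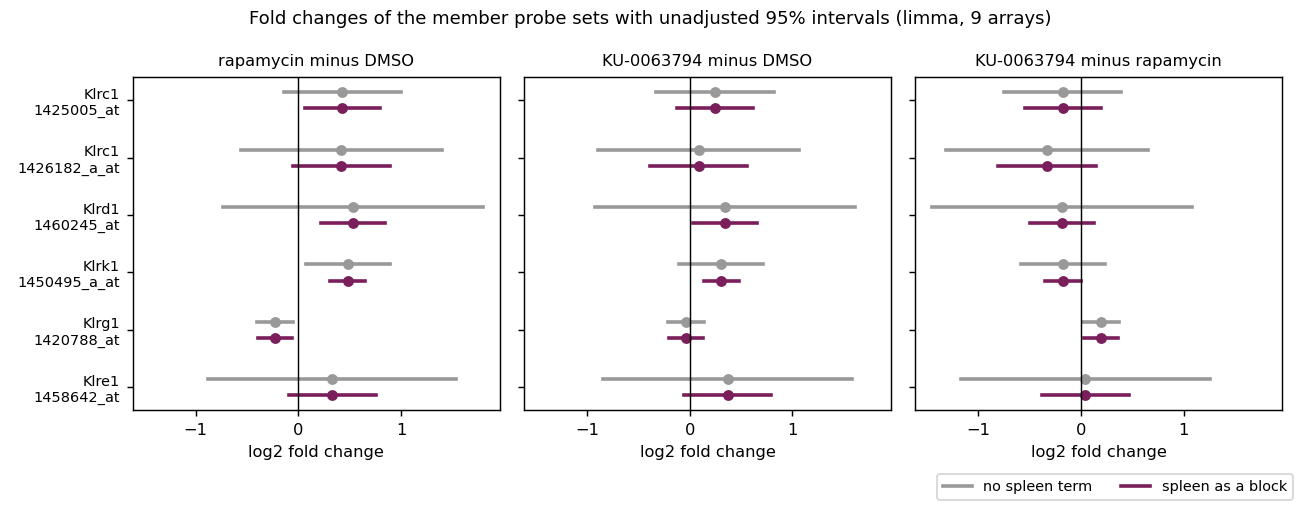
Log2 fold changes of the 6 probe sets in the 3 comparisons, with unadjusted 95% intervals from limma over 9 arrays, without a spleen term (grey) and with the spleen as a block (purple). Most of the width of the Klrd1 and Klre1 intervals is removed by the block, and the interval of Klrk1 with the block lies above 0 for both inhibitors. The Klrg1 differences are between signals below background.

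Set directly against each other at their different doses, KU-0063794 and rapamycin gave no call for any member. Of all 13278 genes 0 passed in limma, 0% with or without the block, while 629 (4.74%) had an unadjusted p under 0.05 without the block and 1329 (10%) with it. Among the members such a p was found for Klrg1 without the block, and for Klrg1 and Klrk1 with it. For Klrk1 the log2 difference, KU-0063794 minus rapamycin, was -0.17, with an interval of -0.34 to -0.01 with the block (limma adjusted p = 0.489), and KU-0063794 was lower in 3 of 3 spleens. For Klrd1 it was -0.19 (-0.50 to 0.12 with the block, limma adjusted p = 0.675), also lower in 3 of 3 spleens. For Klrc1 it was -0.18 (-0.55 to 0.19 with the block, limma adjusted p = 0.738), lower in 2 of 3 spleens. Klrd1 and Klrk1 were thus 2 of 5 members lower in all 3 spleens, where 13.3% of genes were. The intervals are unadjusted.

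The receptors work through adaptors, kinases and phosphatases, of which several fell with the inhibitors in the fit with the block and few without it. Of 14 tested genes for adaptors and proximal kinases of activating receptors, 1 fell with rapamycin and 2 with KU-0063794, where 1.79% and 1.78% of all genes tested fell. With the block 5 and 6 fell, where 5.52% and 5.86% of all genes did, and 0 rose. Lcp2, which encodes the adaptor SLP-76, averaged 6.69 log2 with rapamycin and 6.77 with KU-0063794, against 7.19 with DMSO (log2 fold changes -0.50 and -0.41, limma adjusted p = 0.0208 and 0.0415). Lat, which encodes another adaptor of T cell receptor signalling, fell with KU-0063794 (log2 fold change -0.39, limma adjusted p = 0.0229). Pik3r1, a regulatory subunit gene of PI3 kinase, had log2 fold changes of -0.60 with rapamycin and -0.68 with KU-0063794 and passed with the block (limma adjusted p = 0.00567 and 0.00374). Fcer1g, which encodes an adaptor of activating receptors and is also in the NK cell list, had log2 fold changes of -0.75 and -0.70 and passed with the block (limma adjusted p = 0.0116 and 0.0146). These genes serve other receptors of CTL as well, the T cell receptor among them. Hcst, the DAP10 gene and partner of NKG2D, averaged 5.41 log2 with rapamycin, 5.40 with KU-0063794 and 5.21 with DMSO. Its adjusted p in limma was 0.410 and 0.418 (0.135 and 0.141 with the block), so it passed in neither fit. Tyrobp, which encodes DAP12, was below background on all arrays. The median log2 fold change of the list was -0.14 with rapamycin and -0.22 with KU-0063794.

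Of the 3 phosphatase genes that inhibitory receptors recruit, none passed without the block, and at an unadjusted p under 0.05 there were 1 for rapamycin and 2 for KU-0063794, beside the 17.9% and 18.5% of all genes tested. Inpp5d, which encodes the lipid phosphatase SHIP-1, had log2 fold changes of -0.44 with rapamycin and -0.49 with KU-0063794 and passed with the block (limma adjusted p = 0.0143 and 0.00939). Ptpn6, the SHP-1 gene, had log2 fold changes of -0.04 with rapamycin and 0.40 with KU-0063794, and the change with KU-0063794 passed with the block (limma adjusted p = 0.00866). The Ptpn6 difference between the inhibitors, 0.45 log2, did not pass (limma adjusted p = 0.933, or 0.203 with the block).

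Ligands of the family were measured in the same cultures. Of 8 tested ligand genes none passed without the block, and at an unadjusted p under 0.05 there were 2 for rapamycin and 3 for KU-0063794, beside the 17.9% and 18.5% of all genes tested. With the block 2 rose with rapamycin, where 6.24% of all genes rose, and 1 rose and 1 fell with KU-0063794, where 6.52% rose and 5.86% fell. Clec2d, the gene of a ligand of Klrb1 receptors, averaged 6.35 log2 with rapamycin and 6.27 with KU-0063794, against 5.80 with DMSO, and passed with the block (limma adjusted p = 0.0143 and 0.0238). H2-D1, a class I gene with close relatives that its probes may also match, had a log2 fold change of 0.27 with rapamycin (limma adjusted p = 0.0613, or 0.0395 with the block). Clec2i, the gene of another Klrb1 receptor ligand, fell with KU-0063794 with the block (limma adjusted p = 0.140, or 0.00328 with the block), to a mean just under background against 2.20 log2 with DMSO. Of 10 ligand genes with a probe set, 5 averaged above background.

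**Figure D3:**
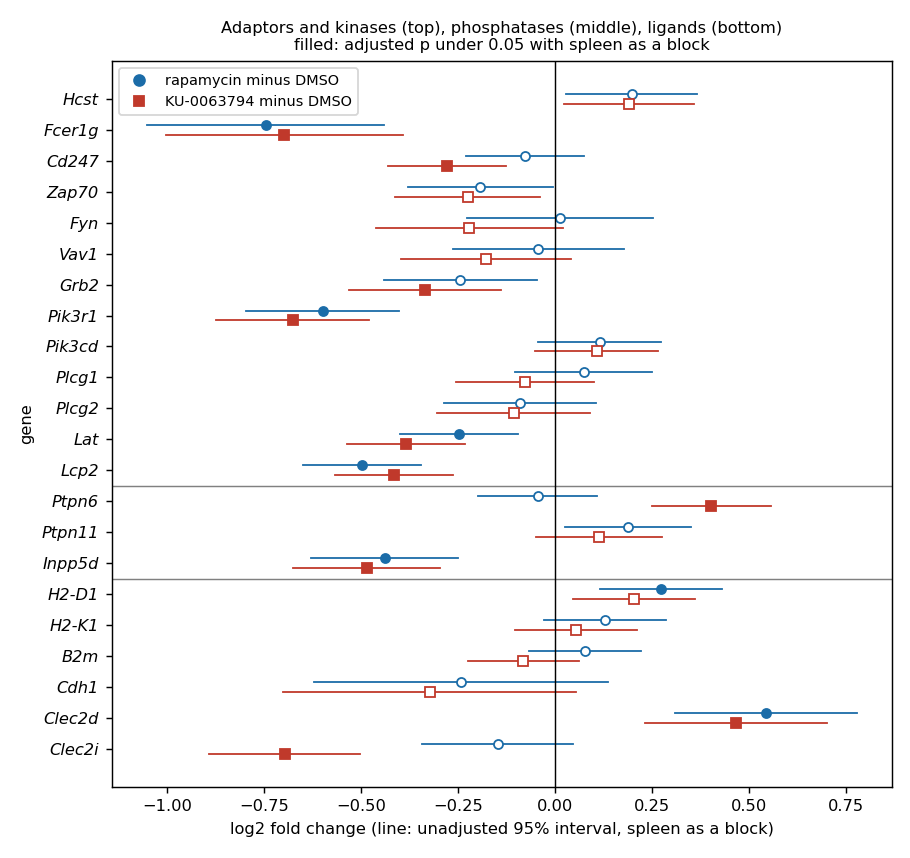
Log2 fold changes against DMSO of the tested adaptor and kinase, phosphatase and ligand genes that were above background on at least 1 array, for rapamycin (circles) and KU-0063794 (squares), with unadjusted 95% intervals of the fit with the spleen as a block. Filled symbols passed at an adjusted p under 0.05 in that fit; Lcp2, Lat, Pik3r1, Fcer1g and Inpp5d lie left of 0 and Clec2d right of 0 for both inhibitors.

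Other killer lectin-like receptors were mostly near or below background. Of 13 such genes with a probe set of their own, 9 were under the filter on low signals, and Klra5, which encodes the receptor Ly49E, was the 1 gene whose mean lay above background. Klra5 read 3.61, 3.03 and 3.23 log2 in the rapamycin cultures of spleens 1, 2 and 3, 3.03, 2.57 and 3.23 in the KU-0063794 cultures and 3.03, 1.84 and 3.28 in the DMSO cultures. Its DMSO value in spleen 2 was the lowest of the 9, as for Klrc1. Its log2 fold changes were 0.57 with rapamycin and 0.23 with KU-0063794, and neither passed (limma adjusted p = 0.440 and 0.801, or 0.128 and 0.557 with the block).

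Transcription factors and surface molecules of effector and memory CD8 T cells were set beside the receptors. Of 19 transcription factor genes 0 passed in limma without the block for either inhibitor, with 6 for rapamycin and 4 for KU-0063794 at an unadjusted p under 0.05, beside the 17.9% and 18.5% of all genes tested. With the block 4 fell with rapamycin, where 5.52% of all genes fell, and 3 fell and 1 rose with KU-0063794, where 5.86% fell and 6.52% rose. Id2, a regulator of effector CD8 T cells, had log2 fold changes of -0.90 and -1.08 (limma adjusted p = 0.00189 and 0.000843 with the block). Tbx21, the T-bet gene, had log2 fold changes of 0.08 and 0.04 and passed in neither fit. Of 17 surface molecule genes Cd27, a costimulatory receptor gene, rose with rapamycin (log2 fold change 1.00, limma adjusted p = 0.0244) and with KU-0063794 (0.85, limma adjusted p = 0.0453). Cd69, an early activation marker gene of the same gene complex, fell with KU-0063794 (log2 fold change -1.06, limma adjusted p = 0.0394). No other surface molecule gene passed without the block, where 4.44% of all genes tested passed for rapamycin and 4.07% for KU-0063794. With the block 4 rose and 3 fell with rapamycin, where 6.24% of all genes rose and 5.52% fell. With KU-0063794 3 rose and 4 fell, where 6.52% rose and 5.86% fell. Cx3cr1 and Zeb2, which like Klrg1 mark terminal effector cells, were below background on all arrays. Il7r, a marker of memory precursors, averaged 7.35 log2 with rapamycin, 7.46 with KU-0063794 and 7.53 with DMSO and passed in neither fit. Of 8 CD8 T cell markers 3 rose with rapamycin and 1 with KU-0063794 with the block, where 6.24% and 6.52% of all genes rose. Without the block 0 passed. At an unadjusted p under 0.05 there were 1 and 1, beside the 17.9% and 18.5% of all genes tested. The mean of the 8 markers was 7.16 to 7.28 log2 over the rapamycin arrays, 7.17 to 7.21 over the KU-0063794 arrays and 7.01 to 7.06 over the DMSO arrays. This mean was thus higher with each inhibitor, as Klrk1 was. Its part in the receptors' changes was not tested.

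Klrd1 and Klre1 differed more between spleens than between treatments. Over its 3 cultures Klrd1 averaged 8.31 log2 in spleen 3, 7.21 in spleen 1 and 6.64 in spleen 2, a range of 1.67 log2, whereas the median gene had a range of 0.17. Klre1 averaged 2.14 log2 in spleen 3, 0.97 in spleen 1 and 0.64 in spleen 2. Klrk1 averaged 7.44 log2 in spleen 3, 6.98 in spleen 1 and 7.03 in spleen 2. In an F test of the spleen term, added after the values had been seen, these 3 genes passed (limma adjusted p = 0.00216, 0.00836 and 0.0152) and Klrc1 and Klrg1 did not (0.101 and 0.620), where 6.99% of all genes tested passed. The same 3 genes were highest in spleen 3 under all 3 treatments, which 7.3% of genes were. Klrc1 instead had its lowest value in spleen 2 under all treatments, as Klrd1 and Klre1 did, which 8.56% of genes did, and it averaged 5.44, 5.47 and 4.90 log2 in spleens 3, 1 and 2.

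Other readings moved with the spleen number. The mean of the 18S ribosomal control probe sets, over all treatments, was 6.71 to 7.41 log2 in the cultures of spleen 3, 7.67 to 8.23 in those of spleen 1 and 8.20 to 8.69 in those of spleen 2, and its part in the differences was not tested. The mean of the NK cell markers was 0.68 to 0.77 log2 in spleen 3, 0.66 to 0.76 in spleen 1 and 0.62 to 0.68 in spleen 2, and 7 of 8 markers were below background. This mean leaves out a probe set shared by Klra9, a gene of the NK cell list, and Klra3. That probe set was above background on all arrays and highest in spleen 2. Mouse, day of culture and any handling shared by cultures of a number cannot be told apart.

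Neighbouring genes were then read by spleen, a span chosen after the values had been seen and therefore given with no test. From Klrb1a to Klra1 the annotation lists 42 protein-coding genes, of which 29 had a probe set of their own and 9 averaged above background. Of these 9, Clec2i, Clec2d, Gabarapl1, Klrd1 and Klrk1 were highest in spleen 3 under all 3 treatments, which 7.3% of all genes tested were. Among the genes that averaged below background, Klre1 and Klrc2 were too. Gabarapl1, an autophagy gene of the Atg8 family, read 5.83, 5.87 and 5.59 log2 in spleen 3 with rapamycin, KU-0063794 and DMSO, against 5.39, 5.29 and 5.20 in spleen 1 and 5.36, 5.22 and 5.20 in spleen 2. Together with Klre1, 4 genes that follow each other on the chromosome were thus high in spleen 3. BC035044 and Cd69 were not highest in spleen 3 under any treatment.

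**Figure D4:**
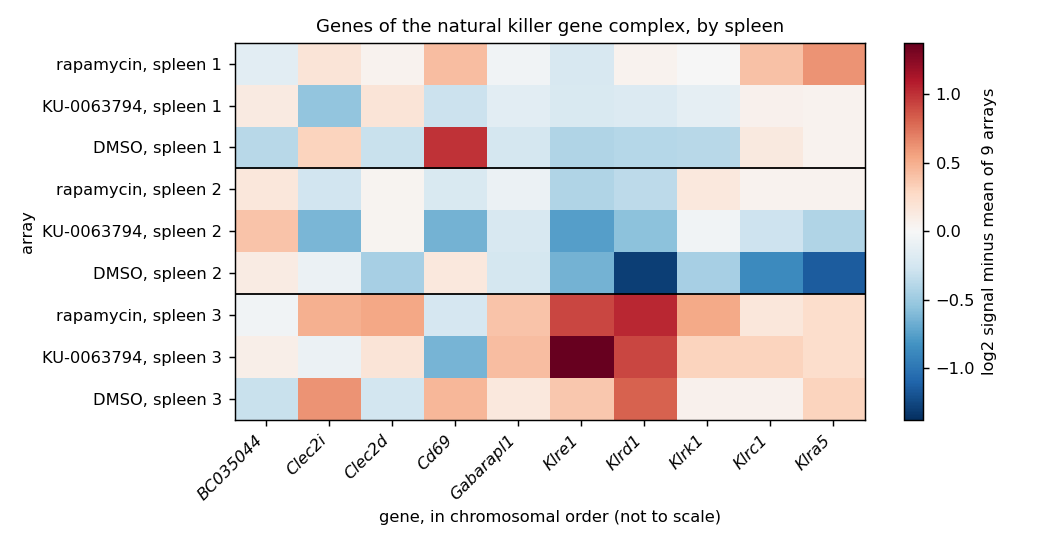
Log2 signal minus the gene's mean over 9 arrays, for the 9 genes of the natural killer gene complex that averaged above background and for Klre1, in chromosomal order but not to scale; rows are arrays grouped by spleen, with the treatments in the same order in each. Gabarapl1, Klre1, Klrd1 and Klrk1 are above their means on all arrays of spleen 3, and Klrc1 and Klra5 are lowest on the DMSO array of spleen 2.

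Likeness of pattern was measured as Pearson's r over the 9 arrays against the genes above background, of which there were 7737, and is a description because with so many genes high values arise readily and all genes share the same libraries. For Klrc1 the gene most alike was Klra5 (r = 0.97), followed by Zfp646 (0.96) and the prion protein gene Prnp (0.95). For Klrd1 they were Gm6958, the ubiquilin gene Ubqln1 and the splicing factor gene Snrnp70 (0.97 each). For Klrk1 they were Lyrm4 (0.98), Abhd16a and Ubxn1 (0.97 each). For Klre1 they were Sac3d1 (0.98), the neighbouring gene Gabarapl1 and the ATP synthase subunit gene Atp5a1 (0.97 each). For Klrg1, all of whose values were below background, they were Snap47, Tmem205 (0.94 each) and Idh3b (0.93). Among the members themselves r over the 9 arrays was 0.90 for Klrd1 with Klre1, 0.83 for Klrd1 with Klrk1 and 0.76 for Klrk1 with Klre1. It was 0.72 for Klrc1 with Klrd1, 0.57 for Klrc1 with Klrk1 and 0.54 for Klrc1 with Klre1. Klrg1 had an r of -0.49 to -0.08 with the other members. Some values of Klra5 and Klrc1 were identical to the deposited digits. Klra5 read 3.03 log2 on rapamycin replicate 2, KU-0063794 replicate 1 and DMSO replicate 1. Klrc1 read 5.33 log2 on KU-0063794 replicate 1 and DMSO replicate 3. The part of such ties in r was not tested.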

How the data were processed

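The authors deposited log2 signals per probe set for 9 arrays, made with Affymetrix Expression Console 1.3.1 per the submitters' processing notes; background correction, summarisation and normalization are not given in the sources used here. Hybridisation controls rose by 1.04 log2 per doubling of their nominal concentration, and no 2 arrays were identical. Values were used as deposited. Of 45037 probe sets other than controls, 34945 carried 1 gene symbol in the array annotation, 932 several and 9160 none. Each gene was represented by its probe set of highest mean signal, and 13278 of 18193 genes, with a mean above the 40th percentile (0.31 log2), entered limma 3.58.1 under R 4.3.3 (lmFit and eBayes, 3 groups, all 9 arrays, two-sided, Benjamini-Hochberg over all genes, threshold 0.05). A second fit added the spleen number as a fixed term (the block). Same-numbered arrays were taken as 1 spleen, since the labels give 1 spleen per biological replicate. Their deviations from group means correlated in all 9 pairings (r 0.345 to 0.533), and r was -0.414 to -0.0791 in 18 others. Deviations within a group cancel out, so positive values in the 9 push the 18 below them, which are not separate evidence. The members, gene lists and tests were chosen with earlier results of these data known. All members were named. From other lists the text names genes that passed in either fit, the largest changes first, and fixed markers, and for each member the 3 genes most alike. The number of arrays limits the precision. Spleens may share handling. Without the block p-values rest on the spread between the 3 mice of a group. With the block they rest on the spread left after differences between spleens are taken out. Alternatives covered normalization, filters, probe set choice, variance models and arrays or spleens left out. The procedure was also run on simulated data in which 200 genes changed with rapamycin. At a change of 0.5 log2 the fit without the block recovered 13 of them and the fit with it 112, with 0 and 3 false calls. These counts hold for data built with such spleen differences and do not show which fit suits the measured arrays. At 2 log2 they recovered 196 and 200, with 3 and 16 false calls.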

Additional observations from a re-analysis of the deposited data

Results flagged for a closer look

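A probe set that the annotation assigns to both Klra9 and Klra3, 2 receptors of the Ly49 family, was not used by gene, yet it was above background on all 9 arrays and above its DMSO value with both inhibitors in every spleen. It read 3.40, 5.52 and 4.28 log2 in the rapamycin cultures of spleens 1, 2 and 3, 3.32, 5.66 and 4.34 in the KU-0063794 cultures and 2.23, 4.73 and 3.38 in the DMSO cultures. The log2 fold change was 0.95 with rapamycin and 0.99 with KU-0063794. In the fit of all probe sets the limma adjusted p was 0.625 and 0.612 without the spleen term, and 0.00231 and 0.00138 when blocked by spleen. Spleen 2 was highest under all treatments, whereas Klrd1, Klre1 and Klrc1 were lowest there. The other 3 killer receptor probe sets with several symbols were below background on all arrays. Klra9 is also in the NK cell list, whose means leave out the probe set shared with Klra3 because it carries several symbols. Whether Klra9 or Klra3 gave the signal was not tested.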

How the results depend on the processing

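Without a spleen term, 0 members were called in any comparison under the other normalizations, filters, probe set choices, variance models and 2-group fits, or with any array or spleen left out. With the replicate block 2 member genes (1 of the 6 probe sets) were called for rapamycin against DMSO and 1 (1) for KU-0063794 against DMSO. The block changed no other call of a member. For rapamycin the block gave 2 genes with quantile normalization, median centring, no filter, a filter at the background level (3 members tested) or array weights, and 3 with the mean of a gene's probe sets (Klrg1 added) or with trend and robust (Klrc1 added). It gave 2 probe sets with quantile normalization or the filter at the background level, 3 with trend and robust, and 1 with median centring, no filter or array weights. For KU-0063794 each of these blocked settings gave 1 gene, and quantile normalization, the filter at the background level, trend and robust and array weights 1 probe set. These combinations, and the block with arrays left out, were added after the data were seen. Over all settings with an array or spleen left out, the genes called ranged from 0 to 2 for rapamycin and from 0 to 1 for KU-0063794, and the probe sets from 0 to 1 and 0 to 0. Log2 differences that changed sign there, none of them called, ranged from -0.0724 to 0.43 for Klrc1, -0.15 to 0.90 for Klrd1, -0.25 to 0.82 for Klre1 and -0.0621 to 0.00926 for Klrg1, a difference between signals below background (KU-0063794 minus DMSO), from -0.0864 to 0.63 for Klre1 (rapamycin minus DMSO), and from -0.62 to 0.21 for Klrd1 and -0.58 to 0.49 for Klre1 (KU-0063794 minus rapamycin; with the block and without rapamycin replicate 3, KU-0063794 replicate 3 or spleen 3, -0.00674, -0.22 and -0.17). The cause was not tested. The number of all genes called was 590 and 540 without the block and 1561 and 1644 with it; without the block it was 0 to 514 and 0 to 548 with an array or spleen left out. Klrg1 and Klre1, at or below background on most arrays, give little information at this signal.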
